A study of Mus musculus with 6 samples.

Results

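Iron enters a hepatocyte mainly as transferrin, is stored in ferritin and leaves through ferroportin, and 10 genes of that route were followed here in Hepa1-6 cells depleted of Crebl2. The 10 genes, Tfrc, Trf, Fth1, Slc40a1, Slc11a2, Slc39a14, Ireb2, Hmox1, Ncoa4 and Steap3, were chosen by name out of 38828 genes and unmatched features in the count files. Earlier results of these data were known when they were chosen. Hepa1-6 is a mouse hepatoma line, grown here in DMEM with 4.5 g/L glucose and 10% serum. Total RNA was sequenced from 3 libraries of cells given Crebl2 siRNA and 3 libraries of cells given siRNA against Renilla luciferase (Luc siRNA), a sequence that mouse cells lack, each for 3 days with a lipid transfection reagent. Nothing in the labels says whether the 3 libraries of a group came from separate cultures, so the p-values measure the spread between these libraries, which may be technical.

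Transferrin, the iron carrier that the liver secretes, binds the transferrin receptor (Tfrc) and is taken into endosomes, where Steap3 reduces the iron and Slc11a2 (DMT1) moves it to the cytosol. Slc39a14 (ZIP14) takes up iron that is not bound to transferrin, Fth1 is the heavy subunit of the ferritin storage shell, Ncoa4 carries ferritin to lysosomes for breakdown, Hmox1 frees iron from heme and Slc40a1 (ferroportin) is the exporter. Some of these messages are read by the iron regulatory proteins, encoded by Aco1 and Ireb2, which in iron-poor cells bind a hairpin called the iron-responsive element. A hairpin in a 5′ UTR then blocks translation, whereas the hairpins in the 3′ UTR of Tfrc protect the message from decay.

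The hairpins are shown first because, in genes that hold one, its place bears on whether the iron regulatory proteins act on message decay or on translation. The hairpins say nothing of other controls on message level, in genes with or without one. The search asked for CNNNNNCAGTGN on the message strand followed by 5 bases that pair with the 5 bases before the loop, G-U pairs allowed, in the UTRs of GENCODE M21 transcripts (GRCm38) that match rows of the files. The 6 bases of the loop, CAGTGN, are in capitals, and each sequence is written 5′ to 3′ on the message strand with T for U. Tfrc sites 1 to 4 lie in its 3′ UTR, the Fth1 and Slc40a1 sites in their 5′ UTRs, and the Slc11a2 site in the 3′ UTR of 1 of its 2 deposited transcripts, with 4 of 5 bases paired.
Tfrc site 1, chr16:32631219-32631247, plus strand: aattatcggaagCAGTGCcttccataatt
Tfrc site 2, chr16:32631598-32631626, plus strand: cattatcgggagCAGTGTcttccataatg
Tfrc site 3, chr16:32631663-32631691, plus strand: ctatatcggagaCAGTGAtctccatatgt
Tfrc site 4, chr16:32631710-32631738, plus strand: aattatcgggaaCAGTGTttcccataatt
Fth1 site, chr19:9982732-9982760, plus strand: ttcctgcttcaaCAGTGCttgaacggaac
Slc40a1 site, chr1:45925465-45925493, minus strand: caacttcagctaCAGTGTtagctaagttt
Slc11a2 site, chr15:100395153-100395181, minus strand: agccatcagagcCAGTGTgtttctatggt

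The fully paired pattern was found in 40 of 35437 5′ UTRs searched (0.113%) and in 181 of 36598 3′ UTRs (0.495%). With 4 of 5 pairs, the pattern was found in 0.522% of 5′ UTRs and 2.74% of 3′ UTRs, so a match like that in Slc11a2 is the more common kind. The other 6 genes held neither form in the transcripts searched, which says only that these letters are not there. Whether any of these sites was bound in the cells was not measured.

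The targeted gene was lowered in every Crebl2 siRNA library. Crebl2, which encodes a CREB-like bZIP protein, held 29.1, 29.8 and 32.3 CPM (counts per 1000000 counts, on TMM-scaled library sizes) with Crebl2 siRNA, against 114, 113 and 112 CPM with Luc siRNA (log2 fold change -1.90, SE 0.0582; edgeR adjusted p = 2.83e-12). Library totals ran from 27082572 to 27710914 counts with Crebl2 siRNA and from 27385328 to 29158489 with Luc siRNA. Mitochondrially encoded genes took 2.23, 0.859 and 2.09% of counts with Crebl2 siRNA and 2.31 to 2.52% with Luc siRNA, so Crebl2 siRNA replicate 2 stood apart. Of 12 hepatocyte markers, Alb (45028 counts in all with Crebl2 siRNA, 48500 with Luc siRNA, not called) and Afp (29742 with Crebl2 siRNA, 23222 with Luc siRNA, raised) had most of the counts. The fibrinogen gene Fgb of the same list had 1415 counts with Crebl2 siRNA and 3770 with Luc siRNA and fell by 1.41 on the log2 scale (edgeR adjusted p = 4.45e-10), while Hnf4a, Apoa2 and Serpina1a were at 0 in all 6 libraries. A 0 or a low count need not mean an absent message here, because reads on bases shared by several transcripts appear not to have been counted. The summed hepatocyte markers, nearly all Alb and Afp, came to 886 to 954 CPM with Crebl2 siRNA and 883 to 939 CPM with Luc siRNA. Macrophage markers summed to 1.44 to 1.83 CPM with Crebl2 siRNA and 1.96 to 2.40 CPM with Luc siRNA, with Ptprc at 0, and endothelial markers to at most 0.396 CPM in any library. Fibroblast and stellate markers summed to 178 to 197 CPM with Crebl2 siRNA and 224 to 236 CPM with Luc siRNA, with Col3a1 and Pdgfrb at 0. Within that list Dcn fell (117 CPM with Crebl2 siRNA against 171 CPM with Luc siRNA), Des rose (62.4 CPM with Crebl2 siRNA against 49.1 CPM with Luc siRNA) and Col1a1 was not called. Erythroid markers summed to 3.10 to 4.08 CPM with Crebl2 siRNA and 1.07 to 1.65 CPM with Luc siRNA, with Hbb-bs and Hbb-bt at 0. The part of these differences in the results was not tested, and in bulk RNA fewer cells of a type and less RNA per cell cannot be told apart.

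Ferroportin message fell to 0.516 of control, transferrin receptor message rose, and the messages of transferrin, heme oxygenase 1 and ferritin heavy chain fell by smaller amounts. Of the 10 genes, 9 had enough counts to be tested, of which 1 was raised, 5 were lowered and 3 were not called at an edgeR adjusted p under 0.05. Over all 11616 genes tested, 38.9% were called, 18.8% raised and 20.1% lowered, so a call by itself is common in this comparison. With library size as the only scaling, 2741 genes were raised and 1920 lowered over the whole table, against 2180 and 2338 with the scaling used here, and 2 of the 10 iron genes were raised. The groups did not overlap for 6 of the 9 tested genes and for 48.8% of all genes tested. The median log2 fold change of the 9 was -0.20, against 0.01 over all genes tested.

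**Figure D1:**
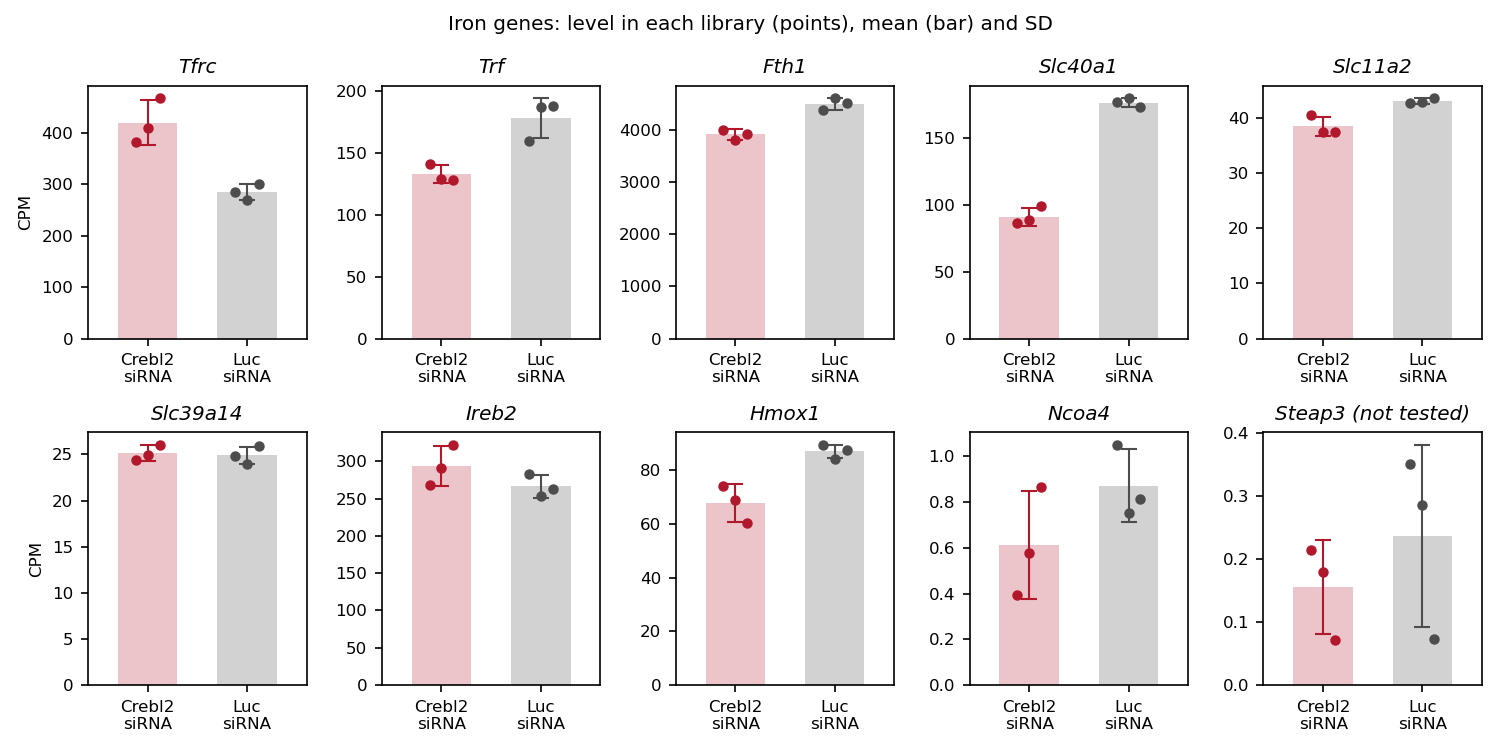
Level of the 10 iron genes in CPM (y axes, each from 0) in the 3 Crebl2 siRNA libraries (red, left) and the 3 Luc siRNA libraries (grey, right); points are libraries, bars means and whiskers SD. The groups are apart for Tfrc (higher with Crebl2 siRNA) and for Trf, Fth1, Slc40a1, Slc11a2 and Hmox1 (lower), and overlap for Slc39a14, Ireb2, Ncoa4 and Steap3.

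On the uptake side, Tfrc was the only one of the 9 tested genes to rise. Tfrc (ENSMUSG00000022797.16; chr16:32608920-32632794, plus strand) held 383, 411 and 468 CPM with Crebl2 siRNA, against 285, 269 and 301 CPM with Luc siRNA. Every Crebl2 siRNA library lay above every Luc siRNA library, and replicate 3 was the highest of the treated ones. The means were 421 ± 43.6 CPM with Crebl2 siRNA and 285 ± 15.8 CPM with Luc siRNA (SD, n = 3 each), a 1.48-fold difference (log2 fold change 0.56, SE 0.0656; edgeR adjusted p = 4.47e-06). Of all genes tested, 15.1% had a larger change in either direction. Nearly all of its counts (99.96%) came from the long transcript, whose last exon holds the 2458-base 3′ UTR with the 4 hairpins printed above, and the shorter transcript had 24 counts over the 6 libraries.

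Transferrin itself moved the other way. Trf (ENSMUSG00000032554.15; chr9:103204001-103230444, minus strand) held 141, 129 and 128 CPM with Crebl2 siRNA, against 159, 187 and 188 CPM with Luc siRNA. The groups did not overlap, although Luc siRNA replicate 1 was closer to the Crebl2 siRNA libraries than the other two controls were. Its log2 fold change was -0.42 (SE 0.0649; edgeR adjusted p = 7.27e-05), or 0.745 of control. The Trf count rests on 376 bases, because exons of other rows cover the rest of the transcript. Among them is a protein-coding gene model, Gm20425, which shares 79.8% of the 50-base words of the transcript and was at 0 counts in every library. The second Trf row, with 178 of its 2339 bases to itself, may cover the same bases.

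Of the other genes on the uptake side, Slc39a14 did not pass the test, Steap3 could not be tested and Slc11a2 is described below. Slc39a14 (chr14:70303469-70351425, minus strand) held 24.3, 24.9 and 26.1 CPM with Crebl2 siRNA and 24.9, 24.0 and 25.9 CPM with Luc siRNA. These ranges overlap, and the log2 difference of 0.01 has a 95% interval from -0.12 to 0.15 (edgeR adjusted p = 0.914), and its sign changed without Crebl2 siRNA replicate 3 or Luc siRNA replicate 2. Steap3 (chr1:120190757-120272705, minus strand) had 13 counts in all with Crebl2 siRNA and 20 with Luc siRNA and was not tested. All 33 fell on 1 of its 4 transcript rows, and these counts are too few to compare Steap3 between the groups.

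Slc11a2, which moves iron out of the endosome, showed a small fall as a gene and a split between its transcripts. The gene (ENSMUSG00000023030.16; chr15:100387898-100425072, minus strand) held 40.6, 37.5 and 37.5 CPM with Crebl2 siRNA, against 42.7, 42.9 and 43.6 CPM with Luc siRNA. The log2 fold change was -0.16 (SE 0.0604), just inside the threshold (edgeR adjusted p = 0.0454), and the call was lost under 9 of 14 alternative settings, among them DESeq2 (adjusted p = 0.0633) and leaving out any library other than Crebl2 siRNA replicate 1 (adjusted p from 0.0724 to 0.186).

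The 2 counted Slc11a2 transcripts end in different last exons. The distal one (chr15:100387898-100389161), in a transcript without the hairpin, is unique over 1264 bases. The proximal one (chr15:100392563-100395323) holds the hairpin shown above, and its transcript has 2707 bases of its own. The distal-exon row held 25.3, 22.8 and 22.5 CPM with Crebl2 siRNA, against 29.1, 29.6 and 30.0 CPM with Luc siRNA, and it fell (log2 fold change -0.33, SE 0.0705; edgeR adjusted p = 0.00119 over 12542 rows tested, of which 37.4% were called). The proximal-exon row held 15.3, 14.8 and 15.0 CPM with Crebl2 siRNA and 13.6, 13.3 and 13.6 CPM with Luc siRNA (log2 fold change 0.15, SE 0.0803; edgeR adjusted p = 0.147). Each row thus kept its groups apart, the distal one lower and the proximal one higher with Crebl2 siRNA, though the proximal one did not pass the test.

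The share of Slc11a2 counts on the distal exon was 62.3% (95% exact binomial interval 59.4 to 65.1%), 60.7% (57.6 to 63.6%) and 60.0% (57.0 to 63.0%) with Crebl2 siRNA. With Luc siRNA it was 68.2% (65.5 to 70.8%), 69.0% (66.3 to 71.6%) and 68.8% (66.1 to 71.4%). These intervals hold for counting error alone, because amplified reads that carry no molecular tag cannot be treated as separate molecules. The mean share was 61.0 ± 1.18% with Crebl2 siRNA and 68.7 ± 0.42% with Luc siRNA (SD, n = 3 each), a difference of -7.67 percentage points; p was 0.1 in a two-sided exact permutation test, the minimum for this number of libraries. This comparison was chosen after the rows had been seen. The share is of counts and not of transcripts, because it was not corrected for unique bases, 1264 for the distal row and 2707 for the proximal one. Of the 50-base words of the distal-exon transcript, 2.02% also occur in other genes, and none of those of the proximal one.

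**Figure D2:**
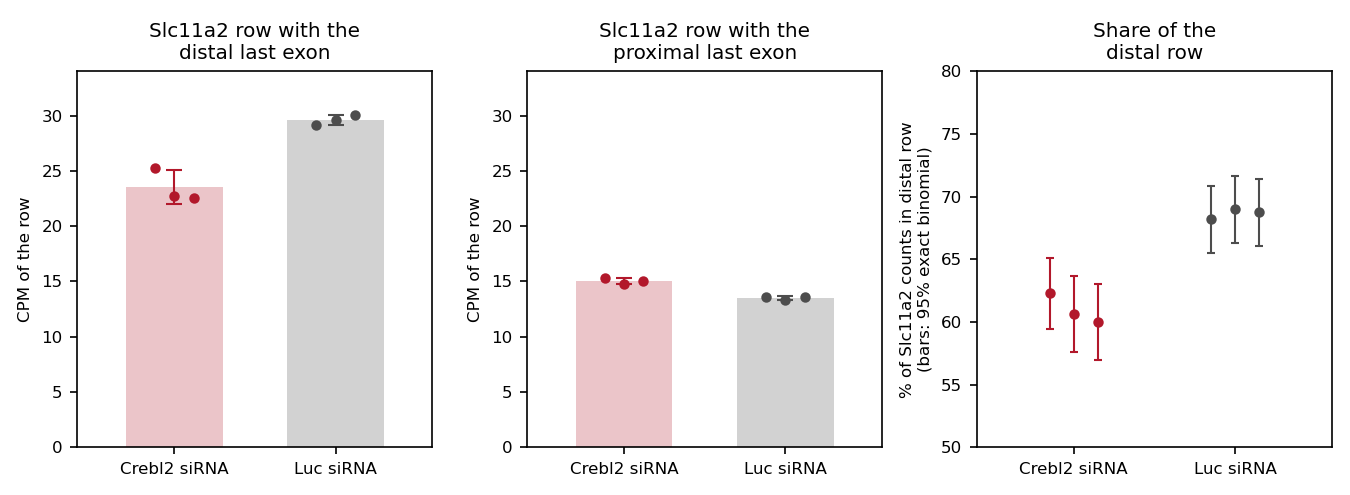
Left and middle, CPM (y axes from 0) of the Slc11a2 rows with the distal and the proximal last exon in Crebl2 siRNA (red, left) and Luc siRNA (grey, right) libraries, with points for libraries, bars for means and whiskers for SD. Right, percent of Slc11a2 counts on the distal row per library with 95% exact binomial intervals (y axis from 50 to 80%): 60.0 to 62.3% with Crebl2 siRNA and 68.2 to 69.0% with Luc siRNA.

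Of the storage genes, Fth1 fell slightly and Ncoa4 did not pass the test. Fth1 (ENSMUSG00000024661.7; chr19:9980598-9985098, plus strand) was by far the most abundant of the 10, with 4012, 3812 and 3928 CPM with Crebl2 siRNA, against 4381, 4609 and 4517 CPM with Luc siRNA. The groups were apart by more than the spread within either, and the log2 fold change was -0.20 (SE 0.0458; edgeR adjusted p = 0.00227), or 0.870 of control. Of all genes tested, 52.2% had a larger change in either direction. Of the 50-base words of the Fth1 transcript, 6.59% are shared with the gene model Gm6977, and reads from there would be uncertain.

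Ncoa4, the ferritin receptor of autophagy (chr14:32159865-32179855, plus strand), had 51 counts in all with Crebl2 siRNA and 73 with Luc siRNA. The levels were 0.394, 0.576 and 0.865 CPM with Crebl2 siRNA and 1.05, 0.753 and 0.812 CPM with Luc siRNA, which overlap. The log2 fold change of -0.51 has a 95% interval from -1.12 to 0.10 (edgeR adjusted p = 0.211), which leaves the size and direction of any change uncertain at these counts. It was -0.27 without Crebl2 siRNA replicate 1 (adjusted p = 0.549) and -0.84 without Crebl2 siRNA replicate 3 (adjusted p = 0.065). Of the 50-base words of its main transcript, 43.1% also lie in the processed pseudogene Gm6768, which had far more counts, 1230, 1185 and 1237 with Crebl2 siRNA and 1333, 1274 and 1187 with Luc siRNA. Gm6768 differed by -0.05 on the log2 scale (edgeR adjusted p = 0.512), and over the shared words its reads and those of Ncoa4 cannot be told apart.

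The iron exporter changed most. Slc40a1 (ENSMUSG00000025993.10; chr1:45908068-45926523, minus strand) held 86.2, 88.4 and 98.9 CPM with Crebl2 siRNA, against 177, 180 and 173 CPM with Luc siRNA. The highest Crebl2 siRNA library stood far below the lowest control, and each was at 48.8 to 56.0% of the Luc siRNA mean. The means were 91.2 ± 6.78 CPM with Crebl2 siRNA and 177 ± 3.35 CPM with Luc siRNA (SD, n = 3 each; log2 fold change -0.95, SE 0.0571; edgeR adjusted p = 2.70e-09). Its p ranked 49 among all genes tested, and 4.58% of genes had a larger change in either direction. Its only row in the deposited counts is the 3370-base transcript that carries the 5′ hairpin. The counts therefore cannot show whether Slc40a1 transcripts without the hairpin were present. None of the 50-base words of the counted transcript occur in another gene.

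Heme oxygenase 1 was lowered as well. Hmox1 (ENSMUSG00000005413.8; chr8:75093621-75100589, plus strand), the enzyme that opens the heme ring and releases its iron, held 74.3, 68.7 and 60.4 CPM with Crebl2 siRNA, against 89.3, 84.2 and 87.4 CPM with Luc siRNA. The groups did not overlap, and Crebl2 siRNA replicate 3 was the lowest. The log2 fold change was -0.36 (SE 0.0673; edgeR adjusted p = 0.000474), or 0.780 of control.

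Ireb2, which encodes iron regulatory protein 2, did not pass the test. Ireb2 (ENSMUSG00000032293.8; chr9:54863789-54912530, plus strand) held 268, 291 and 323 CPM with Crebl2 siRNA and 284, 253 and 263 CPM with Luc siRNA. Crebl2 siRNA replicate 1 lay inside the control range while the other two lay above it (log2 fold change 0.14, SE 0.0637; edgeR adjusted p = 0.0927). It passed under 3 of 14 alternative settings, namely library size scaling (adjusted p = 0.0298), without Crebl2 siRNA replicate 1 (log2 fold change 0.20, adjusted p = 0.0106) and without Luc siRNA replicate 1 (0.18, adjusted p = 0.0438). Without Crebl2 siRNA replicate 3 it was 0.068 (adjusted p = 0.346).

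Per kilobase of bases unique to the main row, a scale on which genes can be compared only roughly, the order of levels in Luc siRNA cells was Fth1, Trf, Tfrc, Hmox1, Slc40a1, Ireb2, Slc11a2, Slc39a14, Ncoa4 and Steap3. Fth1 stood at 4217 ± 108 CPM per kilobase with Crebl2 siRNA and 4846 ± 123 with Luc siRNA, and Trf at 353 ± 19.6 with Crebl2 siRNA and 474 ± 43.4 with Luc siRNA. Tfrc was at 126 ± 13.1 CPM per kilobase with Crebl2 siRNA and 85.3 ± 4.76 with Luc siRNA. Below it, Hmox1, Slc40a1 and Ireb2 were at 43.2 ± 4.45, 27.1 ± 2.01 and 50.9 ± 4.75 CPM per kilobase with Crebl2 siRNA, against 55.4 ± 1.62, 52.4 ± 0.994 and 46.2 ± 2.71 with Luc siRNA (SD, n = 3 throughout). Slc40a1 thus stood below Ireb2 with Crebl2 siRNA, and the Hmox1 and Ireb2 values there lay within their spread of each other. Slc11a2, counted on its distal-exon row, was at 18.6 ± 1.20 CPM per kilobase with Crebl2 siRNA and 23.4 ± 0.368 with Luc siRNA, and Slc39a14 at 8.42 ± 0.294 with Crebl2 siRNA and 8.34 ± 0.305 with Luc siRNA. Ncoa4 averaged 0.811 CPM per kilobase with Crebl2 siRNA and 1.14 with Luc siRNA, and Steap3 0.0713 with Crebl2 siRNA and 0.109 with Luc siRNA.

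The genes whose profiles over the 6 libraries were nearest to that of Slc40a1 were Ust, Sh2d4a and Dsg2. Likeness was the root mean square difference of log2 CPM after centring on the Luc siRNA mean, over 6224 protein-coding genes with a mean of at least 10 CPM, and it was 0.0445, 0.0463 and 0.0571 for these 3. Such closeness reflects mostly the size of the group difference, since the profile has 2 groups.

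The other genes of iron and heme metabolism, 98 of 101 listed names found in the files, were mixed in direction. Of the 72 with enough counts, 11 were raised, 21 were lowered and 40 were not called (edgeR adjusted p, as above). Over all genes tested, 38.9% were called, 18.8% raised and 20.1% lowered, and the counts of each list below are to be read beside these shares. The median log2 fold change of the 72 was -0.03, against 0.01 over all genes tested.

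Among partners of ferroportin, ceruloplasmin fell by almost the same factor. Cp, the plasma ferroxidase that oxidises exported iron for transferrin, held 65.6, 67.3 and 77.7 CPM with Crebl2 siRNA, against 124, 143 and 143 CPM with Luc siRNA (log2 fold change -0.96, SE 0.0703; edgeR adjusted p = 2.53e-08). App, a membrane protein reported to stabilise ferroportin, was slightly higher (log2 fold change 0.18, edgeR adjusted p = 0.00359). Heph, the membrane ferroxidase, was at 0 in all libraries and Hephl1 was too low to test.

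Among genes of the hepcidin axis, through which the liver controls ferroportin protein, 5 of 12 tested were lowered and 1 was raised. Tmprss6, the protease that cuts the hepcidin co-receptor, held 31.6, 29.8 and 26.5 CPM with Crebl2 siRNA, against 46.2, 61.9 and 62.6 CPM with Luc siRNA (log2 fold change -0.96, SE 0.0989; edgeR adjusted p = 1.25e-06). Id1, a target of BMP signalling, fell by 0.79 on the log2 scale, the hormone gene Erfe by 0.42 and the co-receptor partner Neo1 by 0.24. Hepcidin itself (Hamp) had 1 count in all with Crebl2 siRNA and 0 with Luc siRNA, so that its message could not be compared from these counts.

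Of the regulators that sense iron, Aco1 fell. Aco1, the cytosolic aconitase that doubles as iron regulatory protein 1, held 354, 342 and 348 CPM with Crebl2 siRNA, against 424, 418 and 418 CPM with Luc siRNA (log2 fold change -0.27, SE 0.0444; edgeR adjusted p = 0.000141). Fbxl5, the iron-sensing ligase subunit that targets iron regulatory protein 2, had 75 counts with Crebl2 siRNA and 73 with Luc siRNA (log2 fold change 0.04, edgeR adjusted p = 0.932), and its sign changed without Crebl2 siRNA replicate 2 (-0.17) or Luc siRNA replicate 1 (-0.16). Cul1, the scaffold of that ligase, was at -0.14 (edgeR adjusted p = 0.0235), a call lost under 7 alternative settings. Aco1 and Cul1 were the 2 genes lowered of 4 tested in this list.

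Of the 8 other uptake and reduction genes tested, 4 were lowered and 1 raised, against 20.1% lowered and 18.8% raised over all genes tested. Steap4, a metalloreductase induced by inflammation, averaged 16.4 ± 2.06 CPM with Crebl2 siRNA and 27.2 ± 1.27 CPM with Luc siRNA (SD, n = 3 each; log2 fold change -0.73, SE 0.0868; edgeR adjusted p = 5.82e-06). Lrp2, an endocytic receptor, fell by 1.22 on the log2 scale on 52 counts with Crebl2 siRNA and 122 with Luc siRNA, and the lysosomal channel Mcoln1 fell by 0.26. Cyb561a3, a lysosomal ferric reductase, rose by 0.44. Tfr2, the second transferrin receptor and a hepatocyte gene in vivo, had 5 counts with Crebl2 siRNA and 4 with Luc siRNA and was not tested.

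In storage, 1 of 3 tested genes was lowered, the iron chaperone Pcbp1 (log2 fold change -0.23, edgeR adjusted p = 0.00061). The ferritin light chain, Ftl1, was hardly counted, with 20 counts with Crebl2 siRNA and 35 with Luc siRNA (log2 fold change -0.79, SE 0.439; edgeR adjusted p = 0.168). Its value and call turned on single libraries: it was -1.35 without Crebl2 siRNA replicate 3 (adjusted p = 0.0466) and -0.53 without Crebl2 siRNA replicate 1 (adjusted p = 0.416).

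Heme handling was split evenly, with 4 of 14 tested genes raised and 4 lowered. Flvcr2, a membrane transporter of the heme exporter family, rose by 0.64 on the log2 scale and the lysosomal heme transporter Slc48a1 by 0.27, whereas the heme-binding Pgrmc1 fell by 0.42 and Nfe2l2, which encodes the oxidative stress factor NRF2 that can drive Hmox1, Fth1 and Slc40a1, by 0.26. In heme synthesis 1 of 6 tested genes was lowered and 5 were not called. The lowered gene was Fech, ferrochelatase, which puts iron into the ring: it held 167, 164 and 167 CPM with Crebl2 siRNA, against 258, 252 and 240 CPM with Luc siRNA (log2 fold change -0.59, SE 0.0485; edgeR adjusted p = 9.96e-08).

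Of the mitochondrial iron and iron-sulfur cluster genes, 23 were tested, of which 4 were raised, 3 lowered and 16 not called. Most genes of the whole table were not called either: of 11616 tested, 18.8% were raised, 20.1% lowered and 7098 not called. The cochaperone Hscb rose by 0.31 on the log2 scale and Cisd1, of the outer mitochondrial membrane, by 0.16 (a call lost under 6 alternative settings), and the scaffold protein Isca2 fell by 0.39 and the glutaredoxin Glrx5 by 0.22. The number raised was 1 to 7 across the alternative settings, with 7 under library size scaling, and 1 without a filter and without Crebl2 siRNA replicate 2, Luc siRNA replicate 2 or Luc siRNA replicate 3. It was 2 with DESeq2 and without either group's replicate 1.

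**Figure D3:**
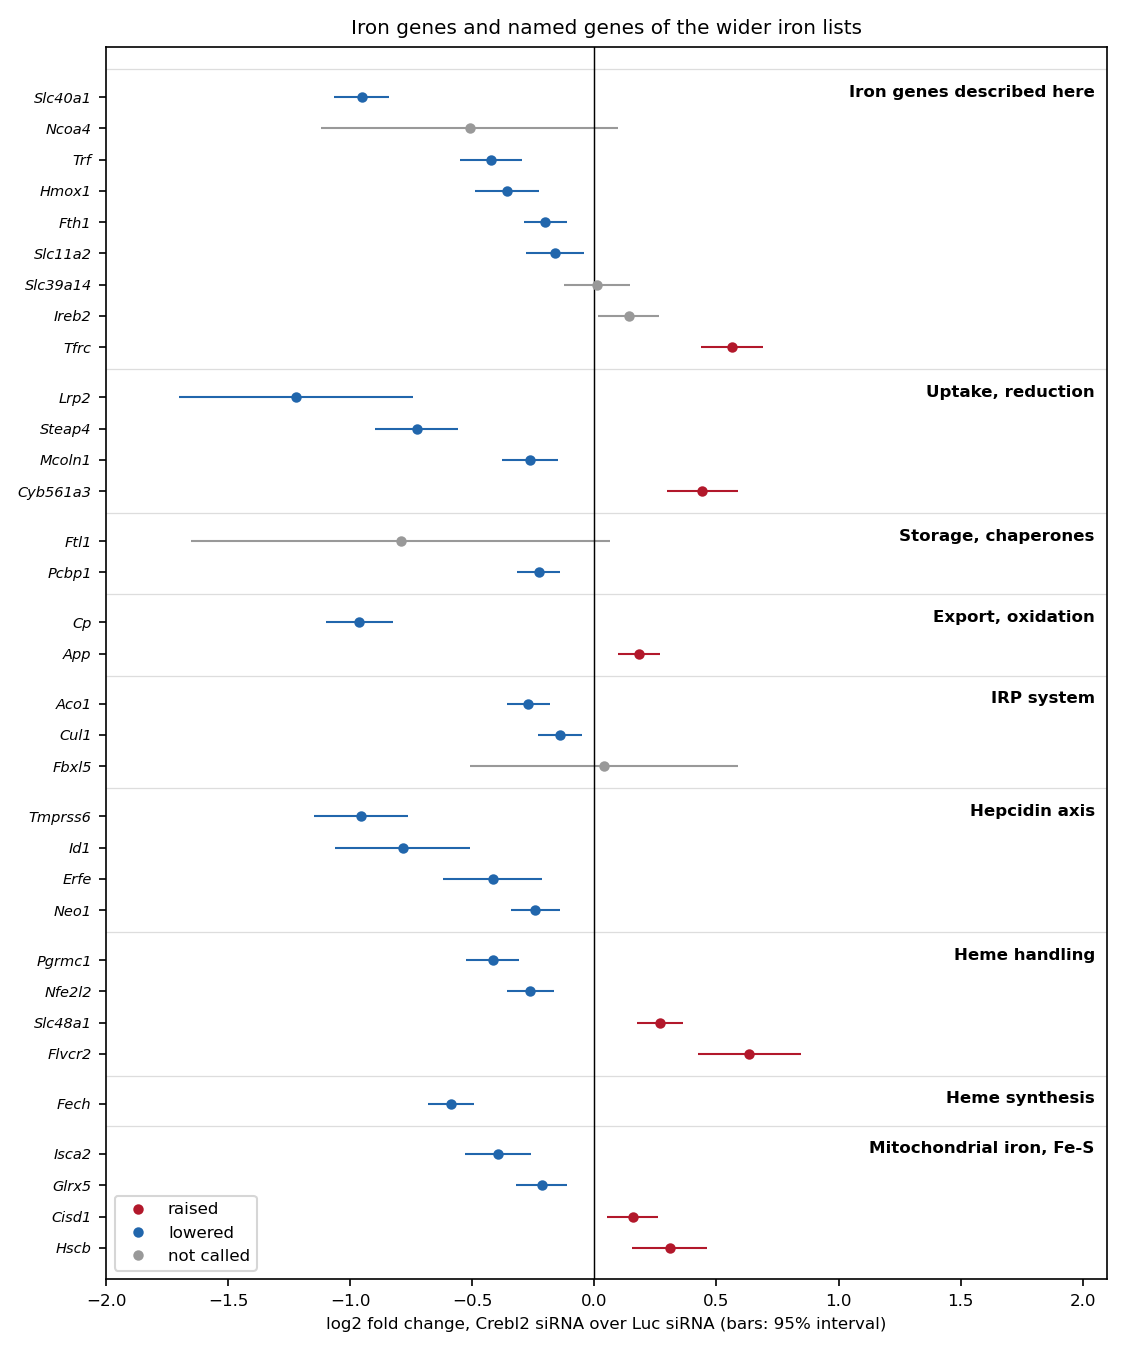
Log2 fold change of Crebl2 siRNA over Luc siRNA (x axis) for the 9 tested iron genes and the tested named genes of the wider lists, grouped by role. The 95% intervals use a normal quantile and are unadjusted for multiple tests. Red, raised, blue, lowered, grey, not called at an edgeR adjusted p under 0.05. Lrp2 (-1.22) lies farthest to the left, with Cp (-0.96), Tmprss6 (-0.96) and Slc40a1 (-0.95) close together to its right, and Tfrc (0.56) and Flvcr2 (0.64) farthest to the right.

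The calls for Tfrc, Slc40a1, Trf, Hmox1 and Fth1 held in all 14 alternative settings, with log2 fold changes of 0.48 to 0.63 for Tfrc and -1.02 to -0.90 for Slc40a1. Those of Trf ran from -0.50 to -0.38, of Hmox1 from -0.43 to -0.28 and of Fth1 from -0.22 to -0.15. Without Crebl2 siRNA replicate 2, the library with few mitochondrial counts, they were 0.59 for Tfrc, -0.93 for Slc40a1, -0.40 for Trf, -0.36 for Hmox1 and -0.18 for Fth1, each still called. The 7-base word GAAATGT was known from earlier work on these data, so its unequal split between raised and lowered genes is not an independent result. It lies on the message strand of the annotated 3′ UTR in 13.3% of raised, 30.3% of lowered and 18.3% of uncalled genes searched. UTR length was not allowed for. Of the 10 iron genes, Tfrc, Slc40a1 and Steap3 hold it, and its part in their levels was not tested.

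**Figure D4:**
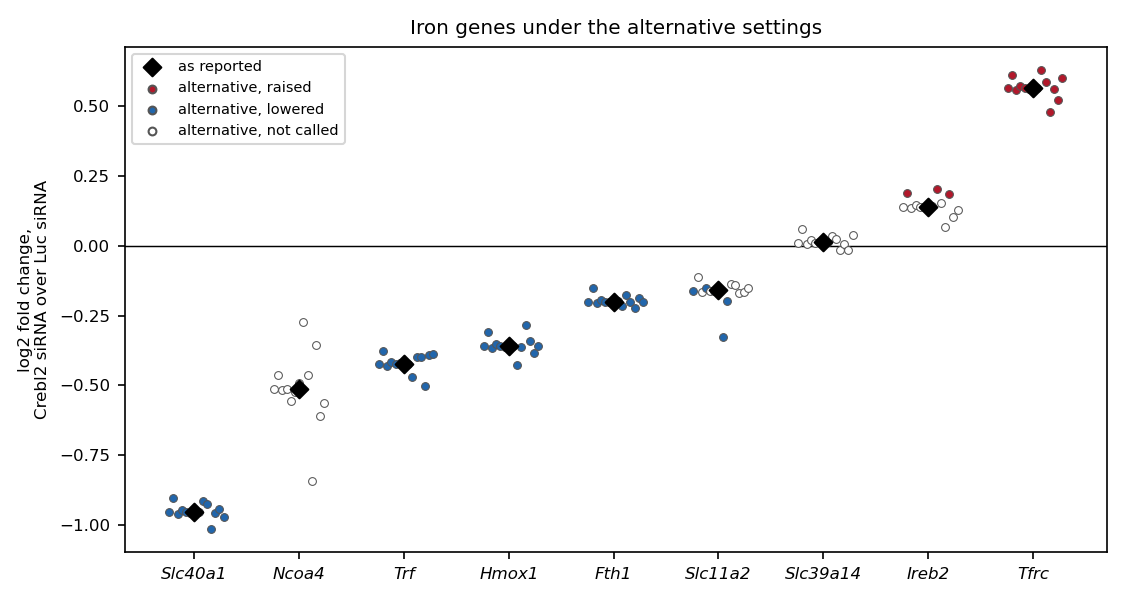
Log2 fold change (y axis) of the 9 tested iron genes as reported (black diamonds) and under 14 alternative settings (circles; red, raised, blue, lowered, white, not called). Slc40a1, Trf, Hmox1 and Fth1 stay lowered and Tfrc raised throughout, while the calls of Slc11a2 and Ireb2 depend on the setting.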

How the data were processed

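The authors deposited raw read counts per Ensembl transcript, 58611 rows in each of 6 libraries, without normalisation. Trim Galore, TopHat and HTSeq, and the builds mm9 and GRCm38, are named in the submitters' processing notes; their versions, the annotation release and whether counting used strand are not given in the sources used here. GENCODE M21 (GRCm38) held 58264 of the identifiers, 53484 in the same version; the 347 others, at most 0.0497% of a library's counts, stayed as features of their own. Reads on bases shared by several transcripts appear not to have been counted, so a count reflects the bases unique to a row, taken here as those in no other row's exon on either strand. Levels of different genes are therefore not comparable as such.

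Counts were summed per gene and compared by edgeR 4.0.16 in R 4.3.3 (quasi-likelihood F test, two-sided) with TMM scaling, filterByExpr and Benjamini-Hochberg adjustment over 11616 genes, called under 0.05. SE came from the fold change and its F statistic. CPM used the TMM-scaled library sizes, and log2 CPM a prior count of 2. The fit was also run on simulated data. Alternatives were RLE or no scaling, no filter or 1 CPM in 3 libraries, DESeq2 1.42.0, limma-voom (limma 3.58.1), the replicate number as a block, the row with most counts, and each library left out. The Slc11a2 rows were put through them after the data were seen.

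The 10 genes and the lists were chosen with earlier results of these data known. From each wider list the text names the called genes of lowest p, 4 at most, or a single gene if the list had no call, and in any case Tfr2, Ftl1, Aco1, Fbxl5, Hamp and Cp; Heph and Hephl1 were named after their values were seen. Of the listed names, Hjv and Fam132b are other names of Hfe2 and Erfe, and Ciao3 was not matched. The genes with profiles nearest to that of Tfrc are not reported here.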

Additional observations from a re-analysis of the deposited data

How the results depend on the processing

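Over 14 alternative settings, 165 values of the iron genes, Crebl2 and the Slc11a2 rows were recomputed; 151 kept their direction and side of the threshold, 9 lost a call and 3 gained one. Of 332 values of other named genes, 316 kept both. In all, 4 values changed sign, none of them called: Slc39a14 was at -0.016 without Crebl2 siRNA replicate 3 and -0.017 without Luc siRNA replicate 2 (range with each library left out -0.017 to 0.037), and Fbxl5 at -0.17 without Crebl2 siRNA replicate 2 and -0.16 without Luc siRNA replicate 1 (range -0.17 to 0.17). The log2 fold change of Slc11a2 lost its call with library size scaling (-0.11, adjusted p = 0.148), no filter (-0.17, 0.0816), DESeq2 (-0.16, 0.0633) and the replicate block (-0.16, 0.0957), and ran from -0.20 to -0.14 with each library left out. Ireb2 was called with library size scaling (0.19, adjusted p = 0.0298) and ran from 0.068 to 0.20 with each library left out. The number of the 10 iron genes raised was 2 with library size scaling and 1 to 2 with each library left out. The cause was not tested. The distal Slc11a2 row stayed called under 13 alternatives added after the data were seen (-0.38 to -0.28), the proximal one was called under none (adjusted p from 0.0521 to 0.377), and the difference in share ran from -8.33 to -7.19 points with each library left out. Among the wider lists, the number raised ran over the settings from 1 to 2 for uptake and from 0 to 2 for the hepcidin axis, and the number lowered from 1 to 2 each for storage, the iron regulatory protein genes and heme synthesis. Libraries of the same replicate number did not deviate together (correlations of -0.13, -0.04 and -0.08 over 11616 genes), so the numbers were not taken as pairs; with the replicate block 1882 genes were raised and 2101 lowered over the whole table. Without a filter or with 1 CPM in 3 libraries, 10 and 8 of the iron genes could be fitted. Low counts limit Ncoa4 and Steap3, and why they are low was not tested.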
